A study of Mus musculus with 8 samples.

Results

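The 10 genes described here, *Wnt2*, *Wnt4*, *Wnt5a*, *Wnt6*, *Rspo1*, *Lgr5*, *Axin2*, *Sfrp4*, *Lef1* and *Fzd1*, encode Wnt ligands, an R-spondin, receptors, a secreted inhibitor, a cytoplasmic scaffold (*Axin2*) and a nuclear factor (*Lef1*) of a pathway that is used in the ovary. They were chosen by symbol, and all 10 were found among the 45583 gene symbols that were counted. Whole ovaries of female mice on a C57/Bl6 background were sequenced at 3 weeks of age, before puberty. The comparison was between 4 mice labelled WT (animal numbers 1118, 1119, 1120 and 1121) and 4 labelled GOAT KO (1139, 1140, 1141 and 1146), with 1 library per mouse. GOAT (ghrelin-O-acyltransferase, gene *Mboat4*) is the enzyme that acylates ghrelin, and the study asked how its loss in the whole animal affects the juvenile ovary. Both groups were bred as littermates from heterozygous parents, and the litter of each mouse was not given in the sources used here.

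Wnt proteins are secreted lipid-modified ligands that bind Frizzled receptors together with LRP co-receptors. In the canonical branch this stops the destruction of beta-catenin, which enters the nucleus and activates genes with TCF/LEF factors, while R-spondins acting through LGR receptors keep Frizzled proteins at the cell surface. In the embryonic gonad *Wnt4* and *Rspo1* favour ovarian over testicular development, and later Wnt signals take part in the growth of follicles and in the upkeep of the surface epithelium.

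The libraries held between 16147216 and 19481798 counts on genes. The targeted gene *Mboat4* had 1 to 3 counts in the libraries labelled WT and 5 to 8 in those labelled GOAT KO, so it went against the labels. The directions given here are those of the labels, and the PCR assays of the study were not used here. Which exons the deletion removed was not examined. In multidimensional scaling the coordinate of GOAT KO 1139 on dimension 1 was 1.21, and the other 7 libraries ranged from -0.47 to 0.17. On dimension 2 WT 1118 was the highest at 0.76, and WT 1120 (-0.43) lay between GOAT KO 1141 (-0.41) and GOAT KO 1146 (-0.46). GOAT KO 1139 also held fat cell markers (5 genes, *Adipoq*, *Plin1*, *Fabp4*, *Cidec* and *Lep*) at a summed 452 CPM (counts per 1000000 counts of the library, scaled by the TMM method), against 13.4 to 30.1 elsewhere. WT 1120 and GOAT KO 1139 had the highest summed level of theca and steroidogenic cell markers, 3118 and 3165 CPM, against 1967 to 2825 CPM in the other 6 libraries. Results are therefore given with all 8 libraries and without these 2. The markers of granulosa cells (summed 4952 to 6452 CPM) and of oocytes (1015 to 1229 CPM) were present in every library, with none of these genes at 0. The sums were 5540 ± 498 CPM (WT) and 6054 ± 319 CPM (GOAT KO) for granulosa cells, and 2382 ± 165.1 and 2753 ± 205.5 CPM for stroma (SD, n = 4 each). In edgeR's test 4 of 8 granulosa, 1 of 8 oocyte and 2 of 6 stroma markers had an unadjusted p under 0.05, beside 4.62% of all genes tested.

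Across all genes, 16601 passed the filter on low counts. Of these, 278 (1.67%) were called, that is, they had an unadjusted p under 0.05 in edgeR's quasi-likelihood test and a log2 fold change over 0.5 in size. An adjusted p (Benjamini-Hochberg over all genes tested) under 0.05 was reached by 4 genes. Without WT 1120 and GOAT KO 1139, 398 of 16641 genes (2.39%) were called and 20 had an adjusted p under 0.05.

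All 10 Wnt genes passed the filter, and 0 were called by edgeR, with all 8 libraries or with the 6. With 8 libraries 0 of the 10 had an unadjusted p under 0.05, and with 6 libraries 2 did, *Wnt4* and *Lgr5*, both lower in libraries labelled GOAT KO. Over all genes tested, an unadjusted p under 0.05 was reached by 767 (4.62%) with 8 libraries and by 1574 (9.46%) with 6. DESeq2 and limma-voom on all 8 libraries also called 0. The values of the 2 groups overlapped for every one of the 10 genes, whereas 484 of the 16601 genes tested (2.92%) did not overlap. The median log2 fold change of the 10 was -0.034 with 8 libraries, beside -0.00035 over all genes tested, and -0.17 with 6 libraries, where 8 of the 10 values were negative. In that set the median over all genes was 0.0010 and 8277 of the 16641 values were negative.

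**Figure D1:**
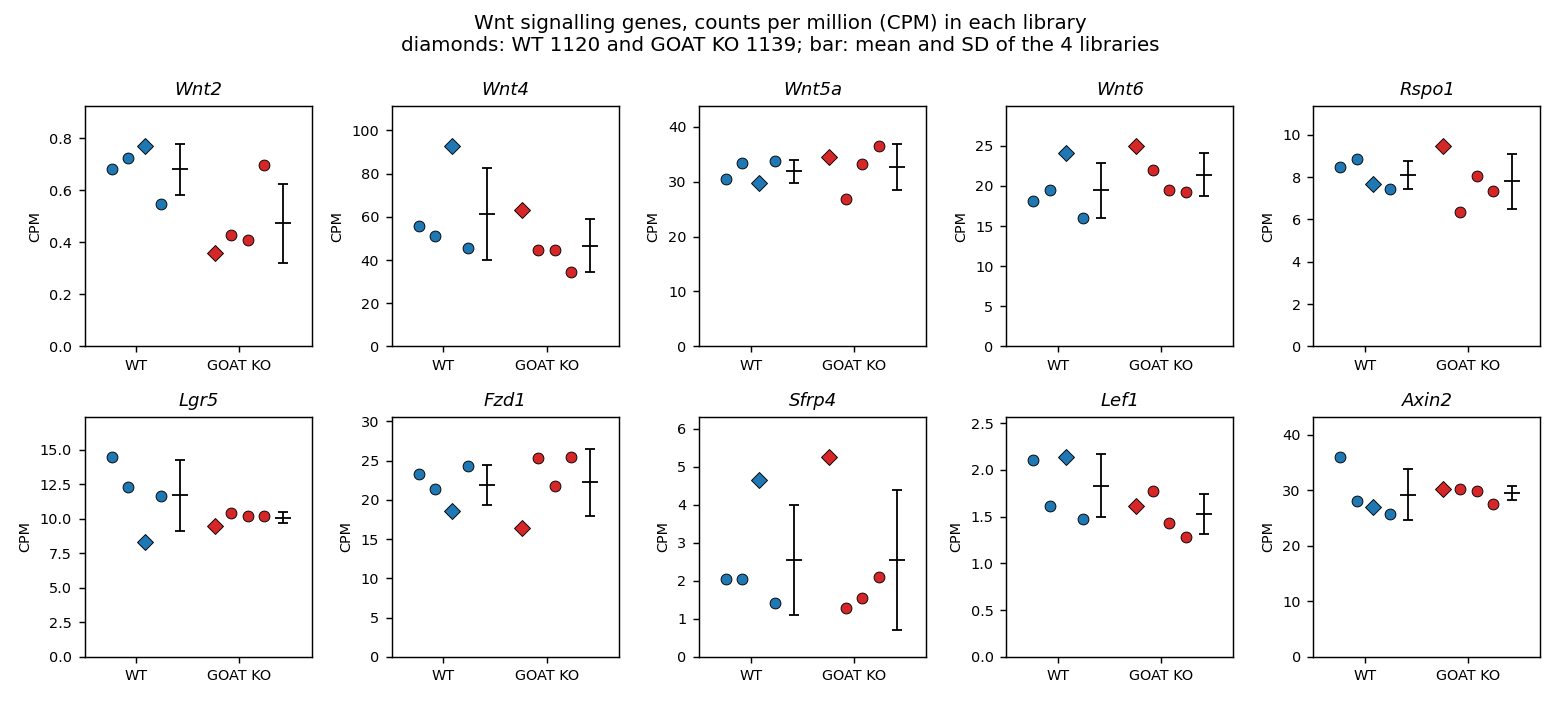
Level of each of the 10 Wnt genes in each library, in CPM on a linear axis from 0. Each point is a library, diamonds are WT 1120 and GOAT KO 1139, and the bar gives the mean and SD of the 4 libraries of a group. The groups overlap in every panel, and the diamonds are the 2 highest points for *Wnt4*, *Wnt6* and *Sfrp4* and the 2 lowest for *Lgr5* and *Fzd1*.

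Among the ligands, *Wnt4* (chr4:137277489-137299726, plus strand, GRCm38) had the most counts of the 10 genes, 7593 over the 8 libraries. WT 1118, 1119, 1120 and 1121 held 55.8, 51.0, 92.6 and 45.6 CPM, and GOAT KO 1139, 1140, 1141 and 1146 held 63.2, 44.8, 44.6 and 34.2 CPM. WT 1120 stood well above the other WT libraries, and GOAT KO 1139 above the other GOAT KO libraries and above 3 of the WT ones. The means were 61.3 ± 21.3 CPM (SD, n = 4) and 46.7 ± 12.1 CPM (SD, n = 4), a log2 fold change of -0.39 (SE 0.23, 95% interval -0.89 to 0.11, edgeR adjusted p = 0.983). Without these 2 libraries the estimate was -0.30 (SE 0.11, interval -0.55 to -0.052), with an adjusted p of 0.484, and it was smaller in size than the fold threshold. Without GOAT KO 1139 alone it was -0.57 (edgeR adjusted p = 0.970) and *Wnt4* was called, whereas without WT 1120 alone it was -0.13 (adjusted p = 0.805). In RNA of a whole organ, fewer cells of a type and less RNA per cell cannot be told apart, here and for each gene that follows.

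*Wnt5a*, a ligand best known for signalling that does not need beta-catenin, lies on chromosome 14 (chr14:28504750-28527448, plus strand). It measured 30.5, 33.5, 29.8 and 33.8 CPM in the WT libraries and 34.5, 26.8, 33.2 and 36.4 CPM in the GOAT KO libraries, in the same order of animals. The GOAT KO libraries held both the highest and the lowest of the 8 values. The log2 fold change was 0.038 (SE 0.097, 95% interval -0.18 to 0.25), and -0.020 without the 2 libraries named above. Of the 10 genes *Wnt5a* had the narrowest interval with 8 libraries.

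*Wnt6*, another ligand (chr1:74771892-74785322, plus strand), measured 18.1, 19.5, 24.2 and 16.0 CPM in the WT libraries and 24.95, 22.0, 19.5 and 19.2 CPM in the GOAT KO libraries. WT 1120 and GOAT KO 1139 were again the 2 highest. The means of 19.4 ± 3.45 and 21.4 ± 2.67 CPM (SD, n = 4 each) gave a log2 fold change of 0.14 (SE 0.13, 95% interval -0.15 to 0.43, edgeR adjusted p = 0.983). It was 0.18 (SE 0.10) with 6 libraries, the larger of the only 2 positive values among the 10 genes in that set, beside *Fzd1*. Single libraries moved the 8-library value by less than its SE, to 0.053 without WT 1121, 0.056 without GOAT KO 1139 and 0.26 without WT 1120 (edgeR adjusted p = 0.464).

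*Wnt2* (chr6:17988940-18030585, minus strand), a canonical ligand made by granulosa cells, was near the limit of detection with 81 counts over the 8 libraries. The WT libraries held 11, 13, 14 and 10 counts (0.681, 0.722, 0.768 and 0.545 CPM), and the GOAT KO libraries 6, 7, 8 and 12 (0.359, 0.428, 0.410 and 0.697 CPM). The first 3 of the GOAT KO libraries lay below all WT libraries and GOAT KO 1146 lay among them. The log2 fold change of -0.52 was the largest in size of the 10 and had a 95% interval from -1.14 to 0.11 (SE 0.28, edgeR adjusted p = 0.983). It was -0.34 (SE 0.35) with 6 libraries, and at this depth a difference of this size could not be told from 0. Without GOAT KO 1146 it was -0.76 (edgeR adjusted p = 0.993) and *Wnt2* was called.

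In the R-spondin branch, *Rspo1* (chr4:124986430-125009099, plus strand), the secreted enhancer of Wnt signals, measured 8.49, 8.84, 7.68 and 7.42 CPM in the WT libraries. The GOAT KO libraries had 9.45, 6.36, 8.04 and 7.32 CPM. The GOAT KO values enclosed all 4 WT values. This gave a log2 fold change of -0.056 (SE 0.13, 95% interval -0.35 to 0.24), and of -0.18 (SE 0.14) with 6 libraries.

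*Lgr5*, an R-spondin receptor and a marker of progenitor cells in the ovarian surface epithelium, lies on chromosome 10 (chr10:115450311-115587780, minus strand). Its WT values were 14.5, 12.3, 8.29 and 11.7 CPM, and its GOAT KO values 9.51, 10.5, 10.2 and 10.2 CPM. WT 1120 was the lowest of all 8 libraries and the other 3 WT libraries were above every GOAT KO library. The GOAT KO libraries spread little (10.1 ± 0.404 CPM, SD, n = 4) beside the WT libraries (11.7 ± 2.57 CPM, SD, n = 4). With 8 libraries the difference was -0.21 on the log2 scale (SE 0.15, 95% interval -0.54 to 0.12, edgeR adjusted p = 0.983), and with 6 it was -0.32 (SE 0.12, interval -0.58 to -0.058, adjusted p = 0.472). The value was -0.093 without WT 1118 alone, and -0.35 without WT 1120 alone (edgeR adjusted p = 0.417). The markers of ovarian surface epithelium, the cells that *Lgr5* marks, summed to 173 CPM in WT 1120, the lowest of the 8 libraries, and to 222 CPM in GOAT KO 1139, the highest, with 177.9 to 209.8 CPM elsewhere. In the other 6 libraries the sums were 199.0, 209.8 and 193.7 CPM in WT 1118, 1119 and 1121 and 183.8, 177.9 and 180.7 CPM in GOAT KO 1140, 1141 and 1146, without overlap. With these 6 libraries all 9 markers had negative log2 fold changes (median -0.15), and with 8 libraries 5 of 9 did (median -0.030). Negative with 6 libraries were also 4 of 4 leukocyte, 4 of 5 endothelium and 3 of 5 oviduct markers, and 8277 of 16641 genes tested. Positive were 6 of 8 granulosa, 7 of 8 oocyte, 5 of 6 stroma, 3 of 5 theca and steroidogenic, and 3 of 4 fat markers. How often 3 against 3 libraries separate over all genes was not counted. The part of the surface epithelium in the *Lgr5* values was not tested.

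*Fzd1* (chr5:4753839-4758035, minus strand) encodes a Frizzled receptor of the Wnt ligands in a single exon. It measured 23.3, 21.4, 18.6 and 24.3 CPM in the WT libraries and 16.4, 25.4, 21.8 and 25.5 CPM in the GOAT KO libraries. WT 1120 and GOAT KO 1139 were the 2 lowest. The difference on the log2 scale was 0.024 (SE 0.14, 95% interval -0.28 to 0.33) with 8 libraries and 0.073 with 6.

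*Sfrp4* (chr13:19623104-19632994, plus strand) encodes a secreted Frizzled-related protein that can bind Wnt ligands and keep them from their receptors. Its counts were 33, 37, 85 and 26 in the WT libraries and 88, 21, 30 and 36 in the GOAT KO libraries (2.04, 2.06, 4.67 and 1.42 CPM against 5.27, 1.28, 1.54 and 2.09 CPM). WT 1120 and GOAT KO 1139 stood far above the other libraries of their groups, while the group means were alike at 2.55 ± 1.44 and 2.54 ± 1.85 CPM (SD, n = 4 each). The log2 fold change of -0.012 had the widest 95% interval of the 10, from -1.06 to 1.03 (SE 0.47), and it was -0.16 (interval -0.73 to 0.41) with 6 libraries.

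The nuclear factor *Lef1* (chr3:131110471-131224356, plus strand), a DNA-binding partner of beta-catenin, was also low, with 235 counts over the 8 libraries. It measured 2.11, 1.61, 2.14 and 1.47 CPM in the WT libraries and 1.62, 1.77, 1.43 and 1.28 CPM in the GOAT KO libraries. WT 1118 and WT 1120 lay above all others, and the other WT libraries lay among those labelled GOAT KO. The difference was -0.26 on the log2 scale (SE 0.20, 95% interval -0.70 to 0.17, edgeR adjusted p = 0.983), and -0.21 with 6 libraries.

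*Axin2* (chr11:108920349-108950783, plus strand) is a direct target of beta-catenin and TCF/LEF factors whose product restrains the pathway, and it is often used as a readout of canonical Wnt activity. It measured 36.1, 28.1, 27.1 and 25.7 CPM in the WT libraries and 30.2, 30.3, 29.95 and 27.5 CPM in the GOAT KO libraries. WT 1118 was the highest and WT 1121 the lowest of the 8, so the GOAT KO libraries lay within the WT range. Its log2 fold change was 0.014 (SE 0.10, 95% interval -0.21 to 0.24) and -0.031 with 6 libraries, so that changes over 0.24 in either direction lay outside the interval with 8 libraries.

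**Figure D2:**
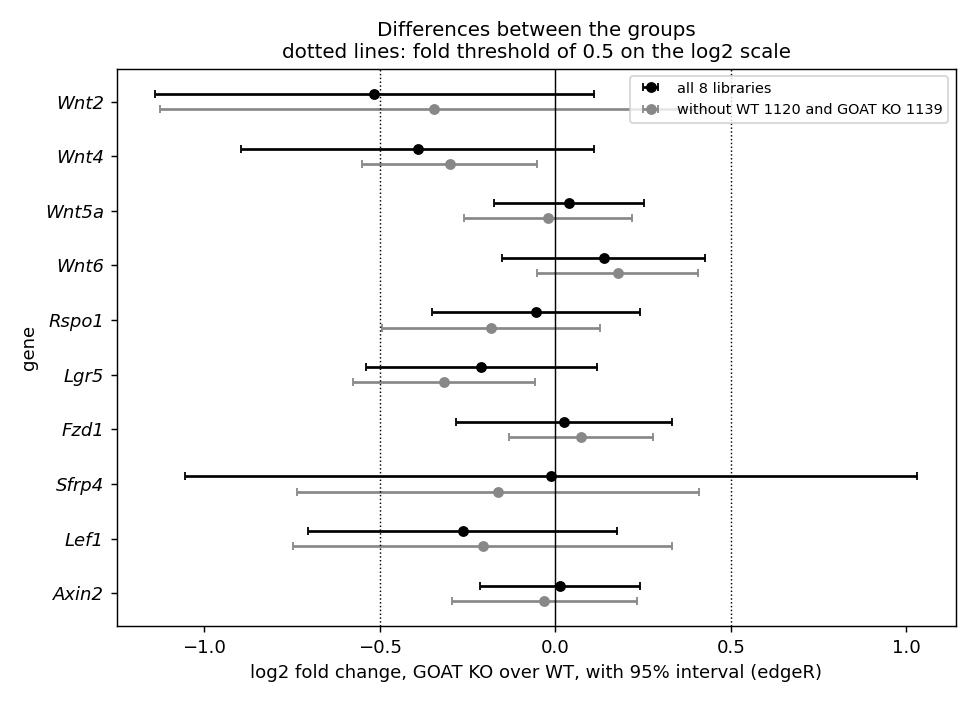
Log2 fold change of the 10 Wnt genes, libraries labelled GOAT KO over WT, with the 95% interval from edgeR, for all 8 libraries (black) and without WT 1120 and GOAT KO 1139 (grey). Dotted lines mark the fold threshold of 0.5. With 8 libraries all 10 intervals include 0, and with 6 libraries those of *Wnt4* and *Lgr5* do not.

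WT 1120 and GOAT KO 1139, from different groups, were the 2 highest libraries for *Wnt4*, *Wnt6* and *Sfrp4* and the 2 lowest for *Lgr5* and *Fzd1*, 5 of the 10 genes. The same held for 3703 of the 16601 genes tested (22.3%), of which 1876 were highest and 1827 lowest in the pair. *Cyp17a1*, which encodes the androgen-forming enzyme of theca cells, was at 355 CPM (WT 1120) and 601 CPM (GOAT KO 1139), against 42.4 to 138 CPM in the other 6 libraries. Of the other theca and steroidogenic cell markers, *Star* also had this pair as the 2 highest, at 31.9 and 233.5 CPM. *Cyp11a1*, *Hsd3b1*, *Lhcgr* and *Insl3* did not, and *Hsd3b1* was at 1851 CPM in GOAT KO 1139 against 2284 CPM in GOAT KO 1141. The fat markers did not follow the same pair, since WT 1120 had a sum of 19.0 CPM, within the range of the other libraries. The part of these cells in the Wnt values was not tested.

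To compare levels between genes, counts were expressed per kilobase of merged exons (RPKM). In the WT libraries the order was *Wnt4* (14.6 RPKM), *Wnt6* (8.87), *Axin2* (5.31), *Fzd1* (5.22), *Rspo1* (4.18), *Wnt5a* (4.07), *Lgr5* (1.14), *Sfrp4* (0.609), *Wnt2* (0.301) and *Lef1* (0.209), as means of 4 libraries. By this length, the steps from *Wnt6* to *Axin2* and from *Wnt5a* to *Lgr5* were the only ones between neighbours whose values over the WT libraries did not overlap. In the GOAT KO libraries the order was the same but for *Wnt5a* (4.18 RPKM) and *Rspo1* (4.02 RPKM), which overlapped and changed places, and the steps from *Wnt6* to *Axin2* and down to *Lgr5* were again free of overlap. With the length of the longest annotated transcript in place of merged exons, *Lgr5* was at 2.44 RPKM, *Axin2* at 6.86 RPKM and *Lef1* at 0.501 RPKM in the WT libraries, and *Lef1* then stood above *Wnt2*. *Wnt5a* was 4.55 RPKM by that length and stood above *Rspo1*. By that length *Wnt6* (7.74 to 11.7 RPKM) and *Axin2* (6.03 to 8.46 RPKM) overlapped in the WT libraries, while *Axin2* and *Fzd1*, *Rspo1* and *Lgr5*, *Lgr5* and *Sfrp4*, and *Lef1* and *Wnt2* did not.

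**Figure D3:**
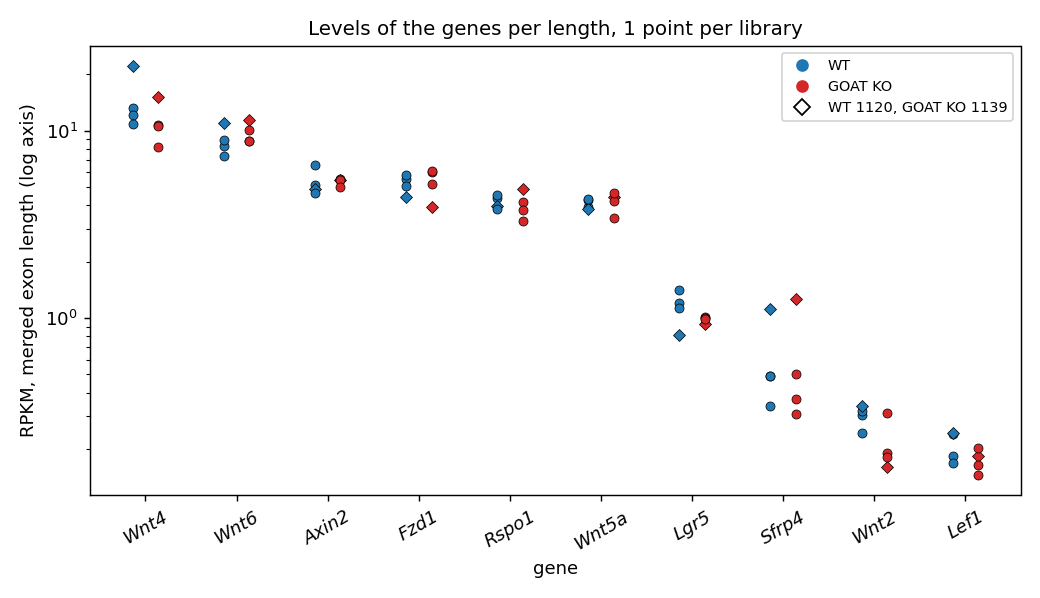
Levels of the 10 Wnt genes in RPKM by merged exon length on a log axis, ordered by the WT mean, with 1 point per library, WT in blue and GOAT KO in red. The genes run from *Wnt4* at 14.6 RPKM down to *Lef1* at 0.209 RPKM in the WT libraries, with a step down to *Lgr5* in both groups.

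Reads that cross a splice junction come from processed transcripts and give a readout apart from the total count, although they are a subset of the same reads. *Fzd1* has no intron, *Wnt2* had 4 such reads over all libraries and *Lef1* had 11, which left 7 genes with at least 20 reads on annotated junctions. For 2 of these 7, *Wnt4* and *Lgr5*, every library labelled GOAT KO lay below every library labelled WT. Among all 11827 genes with at least 20 junction reads this held for 134 (1.13%), and the opposite held for 241. A limit bears on these sums: a junction with no entry in the list of a library was taken as 0 reads, and of 67543 annotated junctions with a mean of at least 10 reads in the libraries that list them, 16381 (24.3%) had no entry in at least 1 library. For *Wnt4* 2 of 4 annotated junctions seen had an entry in every library, and for *Lgr5* 0 of 17.

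The *Wnt4* junctions were crossed by 90, 76, 129 and 80 reads in the WT libraries and by 66, 48, 69 and 47 reads in the GOAT KO libraries. Per 1000000 gene counts this was 5.57, 4.21, 7.13 and 4.33 in WT 1118, 1119, 1120 and 1121 against 3.94, 2.93, 3.54 and 2.72 in GOAT KO 1139, 1140, 1141 and 1146. The gap between the groups, from 3.94 to 4.21, was narrow. The means were 5.31 ± 1.36 and 3.28 ± 0.560 (SD, n = 4 each), with a two-sided exact permutation p of 0.0286, the smallest that 4 against 4 libraries allow. Adjusted over all 11827 genes the p was 0.901. Junction reads came to 9.99, 8.29, 7.64 and 9.56% of the *Wnt4* counts in the WT libraries and to 6.24, 6.55, 7.92 and 7.98% in the GOAT KO libraries, shares that overlapped. Over the 2 junctions listed in every library the values were 4.71, 3.21, 5.75 and 3.19 per 1000000 gene counts in the WT and 3.04, 2.32, 2.72 and 2.72 in the GOAT KO libraries, again without overlap and with a gap from 3.04 to 3.19. Of 9432 genes with at least 20 reads on such junctions, 157 (1.66%) lay wholly lower in the libraries labelled GOAT KO.

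The 3 junctions of the *Wnt4* coding sequence that carried all but 1 of its 605 reads are shown as the 25 bases on each side, from the GENCODE transcript on GRCm38, since reads across them make up the difference. Capitals mark the downstream exon.
*Wnt4* exons 2 and 3, intron chr4:137289350-137295440: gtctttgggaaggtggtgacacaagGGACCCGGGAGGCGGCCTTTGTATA
*Wnt4* exons 3 and 4, intron chr4:137295573-137295659: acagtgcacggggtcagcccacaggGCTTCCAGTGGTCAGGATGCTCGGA
*Wnt4* exons 4 and 5, intron chr4:137295803-137296311: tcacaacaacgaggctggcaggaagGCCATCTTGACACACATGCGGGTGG

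The junction of exons 4 and 5 carried 229 reads, 2.04 ± 0.627 per 1000000 in the WT and 1.22 ± 0.176 in the GOAT KO libraries (SD, n = 4 each), and did not overlap between groups. That of exons 2 and 3 carried 118 reads (1.10 ± 0.221 against 0.569 ± 0.397 per 1000000) and had no entry in the list of GOAT KO 1146, so that its value there may be too low. The values of exons 3 and 4, with 257 reads, were 2.17 ± 0.631 and 1.48 ± 0.252 per 1000000. All 3 junctions had the lower mean in the libraries labelled GOAT KO, and the latter 2 overlapped between groups.

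The *Lgr5* junctions were crossed by 54, 22, 24 and 29 reads in the WT libraries and by 17, 17, 20 and 14 in the GOAT KO libraries. This was 3.34, 1.22, 1.33 and 1.57 reads per 1000000 gene counts against 1.01, 1.04, 1.03 and 0.809. WT 1118 stood far above the other WT libraries, and the lowest WT value, 1.22, was close to the highest GOAT KO value, 1.04. The means were 1.87 ± 0.997 and 0.972 ± 0.109 (SD, n = 4 each), again with the smallest exact permutation p of 0.0286 and with 0.901 after adjustment over all 11827 genes. Since each *Lgr5* junction lacked an entry in at least 1 library, no value over junctions listed in every library could be had for it. Whether missing entries were true zeros was not tested. Unlike *Wnt4*, the reads were spread over 17 junctions with at most 19 reads on each, and the junctions that reached 19 were those of exons 5 and 6 and of exons 8 and 9, both in the coding sequence of the extracellular part of the gene product.
*Lgr5* exons 5 and 6, intron chr10:115475246-115478386, minus strand: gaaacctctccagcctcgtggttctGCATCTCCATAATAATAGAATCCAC
*Lgr5* exons 8 and 9, intron chr10:115466628-115470563, minus strand: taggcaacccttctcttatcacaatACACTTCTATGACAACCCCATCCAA

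For the other 5 genes the junction reads of the groups overlapped, with 178 junction reads for *Wnt5a*, 249 for *Wnt6*, 149 for *Rspo1*, 365 for *Axin2* and 44 for *Sfrp4* and two-sided exact permutation p from 0.571 (*Wnt6*) to 0.914 (*Rspo1*). *Axin2*, a canonical target, had 2.67 ± 0.542 and 2.54 ± 0.193 junction reads per 1000000 gene counts (SD, n = 4 each). The use of alternative junctions could not be compared. Where junctions that share a splice site held at least 10 reads together in every library, in *Wnt4* and *Wnt6*, the less used junction at each such site carried 1 read over the 8 libraries, under the 5% set as the smallest share to compare.

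**Figure D4:**
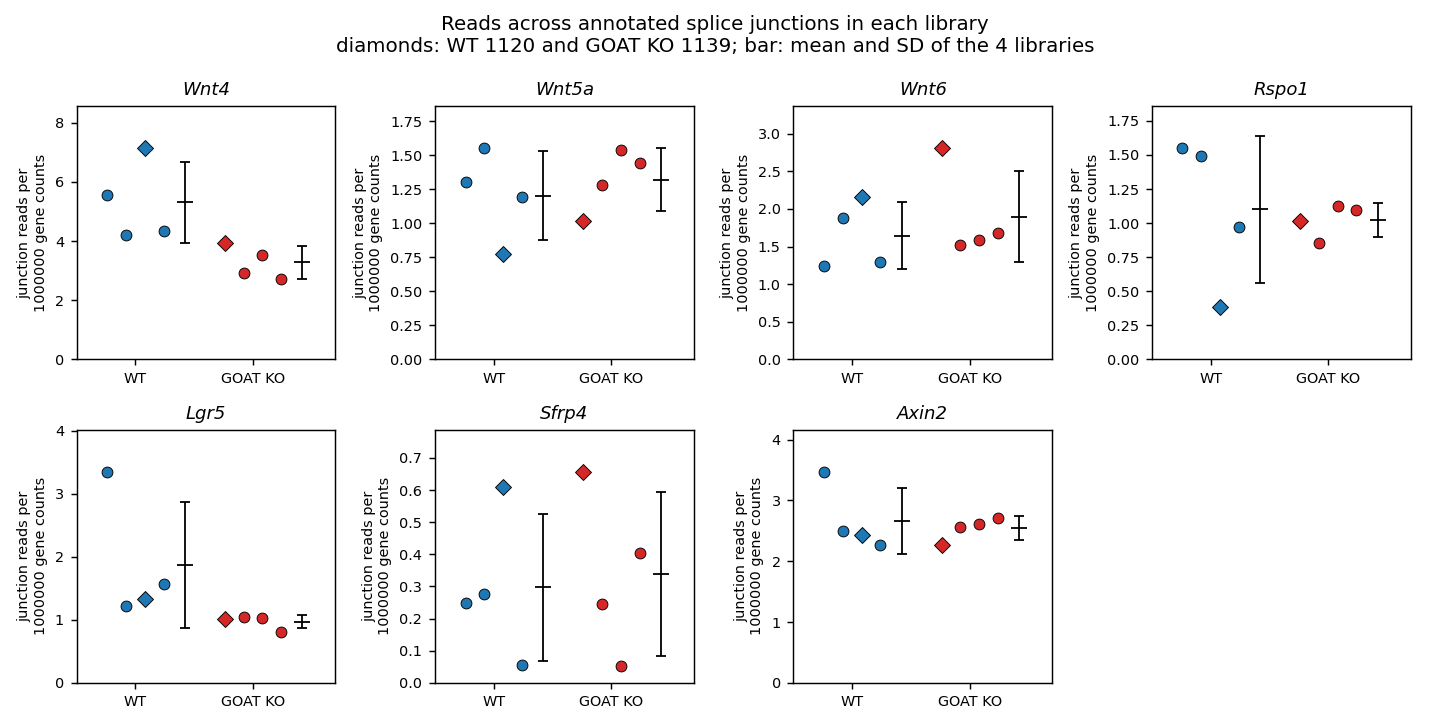
Reads across annotated splice junctions per 1000000 gene counts for the 7 Wnt genes with at least 20 such reads, on linear axes from 0, with 1 point per library and the mean and SD of each group. For *Wnt4* and *Lgr5* the 4 libraries labelled GOAT KO lie below the 4 labelled WT, and the other 5 genes overlap. Junctions with no entry in a library count as 0.

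Of 85 further genes of the pathway, 66 passed the filter on low counts and 3 were called with 8 libraries, 2 higher and 1 lower in libraries labelled GOAT KO. The same 3 were called with 6 libraries, and by DESeq2 and limma-voom with 8. The share was 3 of 66 beside 1.67% of all genes, and the median log2 fold change of the 66 was -0.021. Per list, 0 of 5 tested other ligands, 0 of 2 secretion genes, 0 of 13 other receptors, 0 of 6 R-spondin axis genes, 0 of 15 cytoplasmic and 0 of 11 nuclear genes were called by edgeR. With 8 libraries 1 receptor gene of these lists had an unadjusted p under 0.05, *Fzd4*. With 6 libraries 4 receptor, 2 R-spondin axis and 1 nuclear gene did. Of all 66 pathway genes 4 (8 libraries) and 11 (6 libraries) had an unadjusted p under 0.05, beside 4.62% and 9.46% of all genes tested, so that with 8 libraries the share was near that of all genes. Of 7 tested secreted inhibitors 2 were called higher, and of 7 other Wnt targets 1 was called lower.

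*Draxin* (chr4:148098437-148130698, minus strand), which encodes a secreted axon guidance protein that antagonises Wnt signals through LRP co-receptors, held 2, 4, 17 and 8 counts in the WT and 12, 42, 32 and 33 in the GOAT KO libraries. GOAT KO 1139 lay below WT 1120 and the other GOAT KO libraries above all WT libraries. It was higher by a log2 fold change of 1.95 (SE 0.51, edgeR adjusted p = 0.983), and by 2.90 (SE 0.39) with 6 libraries, where it had an adjusted p of 0.0161, the only pathway gene under 0.05.

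*Frzb* (chr2:80411970-80447625, minus strand), which encodes a secreted Frizzled-related inhibitor, measured 3.66, 4.11, 3.84 and 3.71 CPM in the WT and 3.47, 5.74, 6.25 and 8.19 CPM in the GOAT KO libraries. GOAT KO 1139 was the lowest of the 8 and the other 3 GOAT KO libraries the highest. It was higher by 0.63 on the log2 scale (SE 0.22, edgeR adjusted p = 0.983), and by 0.81 (adjusted p = 0.207) with 6 libraries. Without GOAT KO 1146 the difference was 0.43 and *Frzb* was no longer called.

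*Sp5* (chr2:70474923-70477729, plus strand), which encodes a zinc finger factor and is a direct target of canonical Wnt signals, measured 1.24, 1.33, 0.823 and 1.15 CPM in the WT and 0.838, 0.367, 0.461 and 0.697 CPM in the GOAT KO libraries. Only WT 1120 and GOAT KO 1139 overlapped. It fell by 0.94 on the log2 scale (SE 0.29, edgeR adjusted p = 0.983) with 8 libraries and by 1.27 (adjusted p = 0.311) with 6. Its counts were low, between 6 and 24 per library, and *Axin2*, another direct target, had the values given above.

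**Figure D5:**
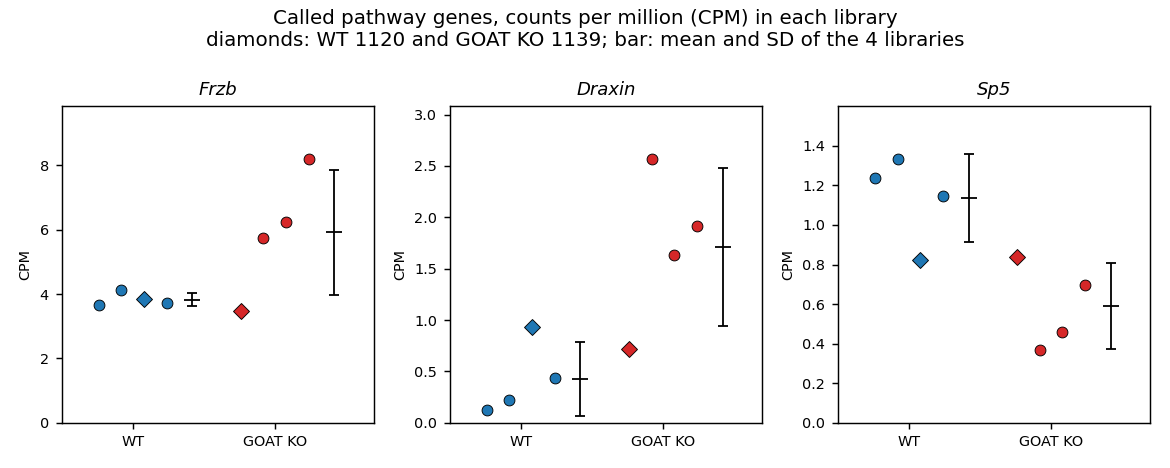
Level of the 3 called genes among the 85 further pathway genes in each library, in CPM on linear axes from 0, with the mean and SD of the 4 libraries of each group. *Frzb* and *Draxin* are higher and *Sp5* lower in libraries labelled GOAT KO, and in each panel at least 1 of the diamonds (WT 1120 and GOAT KO 1139) lies within or beyond the other group.

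The gene of highest mean RPKM over the WT libraries, by merged exon length, in each list did not pass the thresholds. *Ctnnb1*, which encodes beta-catenin itself, had 159 RPKM in the WT libraries and a log2 fold change of 0.040 (SE 0.064). *Myc*, a target gene, had 50.2 RPKM and -0.20 (SE 0.18), and the inhibitor *Sfrp1* 25.9 RPKM and -0.067 (SE 0.091). *Ryk*, a receptor of the tyrosine kinase family, had 25.1 RPKM and -0.089 (SE 0.053), and the nuclear factor *Tcf7* 23.5 RPKM and -0.090 (SE 0.11). The receptor gene *Ptk7* (23.7 RPKM) stood just above *Ryk* (23.55), and the nuclear gene *Pygo2* (23.6) above *Tcf7* (22.1), in the means of the GOAT KO libraries, and *Pygo2* also stood above *Tcf7* by the longest transcript. *Ptk7* and *Pygo2* had log2 fold changes of 0.022 and 0.084. *Wls*, which carries Wnt proteins to the surface of the cells that make them, had 17.9 RPKM and 0.047 (SE 0.073), and the R-spondin receptor *Lgr4* 14.7 RPKM and 0.084 (SE 0.095). Of the other ligands *Wnt5b* had 4.22 RPKM and a log2 fold change of 0.15 (SE 0.12). *Wnt2b* was close to it at 4.03 RPKM and stood above it by the longest transcript, at 5.10 against 4.72 RPKM. *Fzd4*, a Frizzled receptor named here after its values were seen, had a log2 fold change of 0.27 (SE 0.082, edgeR adjusted p = 0.983), under the fold threshold. It was 1 of the 66 tested pathway genes without overlap between the groups, no larger a share than the 2.92% of all genes.

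*Wnt4* and *Rspo1* both lie on chromosome 4 between 100 and 150 Mb, as does *Draxin*. In that stretch 28 of 553 tested genes (5.06%) were called, *Draxin* among them, beside 1.67% of all genes tested. The stretch was chosen because earlier results of these data placed many called genes there, so its share is a description and no test of the region. Within 1 Mb of *Wnt4* 0 of 23 tested genes were called by edgeR, and within 1 Mb of *Rspo1* 1 of 18. The nearest tested genes beside *Wnt4*, *Zbtb40*, *Gm13005*, *Cdc42* and *2810405F17Rik*, had log2 fold changes of -0.093, 0.28, -0.0083 and -0.048. Those beside *Rspo1*, *Cdca8*, *9930104L06Rik*, *Gnl2* and *Dnali1*, had 0.10, 0.083, -0.016 and 0.082. Over the fold threshold were *Grik3*, the called gene within 1 Mb of *Rspo1* (log2 fold change 1.52, SE 0.31, edgeR adjusted p = 0.550), and *Cela3b* within 1 Mb of *Wnt4* (0.53, SE 0.47), which was not called.

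The genes whose pattern over the 8 libraries was most like that of each Wnt gene were found among all genes tested. Pearson's r of log2(CPM + 0.5) was used, as a description over 8 libraries of which 2 stand apart. Each was picked for a high r among 16601 genes, and how high such an r comes for unrelated genes was not tested. Most alike were *Atpaf2* (r = 0.976) and *Enthd2* (0.974) for *Wnt4*, *Zcchc7* (0.992) and *Ppfibp2* (0.986) for *Lgr5*, and *Slc12a5* (0.990) and *Brd3* (0.988) for *Sfrp4*. *Fzd1* was closest to *Kat2b* (0.985) and *Stx17* (0.979), *Wnt6* to *Yrdc* (0.966) and *Ptpmt1* (0.964), and *Wnt5a* to *Trpv2* (0.960) and *Fbln7* (0.950). *Axin2* was closest to *Ifitm1* (0.961) and *Fam117a* (0.959), *Lef1* to *Clta* (0.986) and *Snrpd3* (0.975), *Wnt2* to *Gm12115* (0.970) and *Rspo1* to *Urb2* (0.940). Among pairs of the Wnt genes themselves the highest r over the 8 libraries was that of *Wnt4* with *Lef1* (0.785) and the lowest that of *Sfrp4* with *Fzd1* (-0.888). Over the 6 libraries without WT 1120 and GOAT KO 1139 these were 0.828 and -0.270, and the highest was then that of *Wnt2* with *Sfrp4* (0.892, against 0.084 over 8).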

How the data were processed

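One library per mouse was sequenced by the authors as single reads of 50 bases and aligned with TopHat 2.0.14 to GRCm38 (mm10), and the authors summarised and deposited the counts of reads per known gene, whole numbers without normalization. Read counts per splice junction were deposited per library. The StringTie 1.0.4 transcripts and the mapping summary were not used here. The counting tool and its use of strand were not given in the sources used here, so reads of *Wnt5a* and *Axin2* cannot be told apart from those of the antisense genes *Gm2670* and *Gm11670* (5 and 1 counts over all libraries), nor those of *Lef1* from its antisense gene *Gm43352*, which was not analysed here.

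The filter on low counts was filterByExpr of edgeR (a CPM worth 10 counts at median depth, reached in 4 libraries, and a total of 15). Counts were scaled by the TMM method and compared between libraries labelled GOAT KO and WT with edgeR 4.0.16 in R 4.3.3 by the quasi-likelihood test. The thresholds of the study were used, a log2 fold change over 0.5 in size together with an unadjusted p under 0.05, and the Benjamini-Hochberg adjusted p stands beside them. CPM used TMM-scaled library sizes, and RPKM divided CPM by merged exon length from GENCODE on GRCm38 (a later release than the authors used). Junction reads on annotated introns were divided by the gene counts of the library and compared by two-sided exact permutation (Python 3.11.15). DESeq2 1.42.0, limma-voom (limma 3.58.1), RLE size factors, no filter on low counts, each library left out and the 6 libraries without WT 1120 and GOAT KO 1139 were alternatives. The study left out 1 library of each group without naming them in its text, so all 8 were the main set. Scaling of junction reads per total of junction reads and by TMM factors, and sums over junctions listed in every library, were added after the values were seen. The test was also run on simulated counts, with larger changes than those of the Wnt genes and with no library standing apart. That run therefore does not bear on the calls made here.

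Genes named are the 10 Wnt genes, pathway genes that were called, the gene of highest RPKM in each pathway list, the most alike genes, and the nearest tested genes beside *Wnt4* and *Rspo1*. Outside this rule, *Mboat4* was named as the targeted gene, and *Gm2670*, *Gm11670* and *Gm43352* as antisense genes of members. *Cyp17a1*, the other theca and steroidogenic cell markers and the fat markers came from the marker lists. *Fzd4*, *Wnt2b*, *Pygo2*, *Ptk7*, *Sfrp2*, *Grik3* and *Cela3b* were named after their values were seen. Members, lists, tests and alternatives were chosen with earlier results of these data known. Depth ran from 16147216 to 19481798 counts, which leaves *Wnt2*, *Lef1* and *Sfrp4* with large counting error. Chi-square per gene between libraries of a group was 3.96 to 25.0, so each library counts as 1 replicate.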

Additional observations from a re-analysis of the deposited data

Results flagged for a closer look

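In groups of 4 libraries, the distance of the highest or the lowest library to its nearest neighbour was set against the whole range of the group by Dixon's ratio at its 95% critical value, in 34 groups of CPM or junction values, of which chance marks about 1 in 20. *Axin2* was lowest in GOAT KO 1146 at 27.54 CPM, with the other 3 libraries labelled GOAT KO between 29.95 and 30.31 CPM. *Wnt6* junction reads were highest in GOAT KO 1139 at 2.805 per 1000000 gene counts. *Lgr5* junction reads stood out in both groups, with WT 1118 highest at 3.344 per 1000000 and GOAT KO 1146 lowest at 0.8091 per 1000000. Junctions with no entry in a library's list were taken as 0 in these sums.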

How the results depend on the processing

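The number of Wnt genes called was 0 under 11 of 13 alternatives. It was 0 to 1 when a library was left out, with *Wnt4* called without GOAT KO 1139 (log2 fold change -0.57, edgeR adjusted p = 0.970) and *Wnt2* without GOAT KO 1146 (-0.76, adjusted p = 0.993). With 1 library left out *Wnt4* ran from -0.57 to -0.13 (without WT 1120), *Lgr5* from -0.35 (without WT 1120) to -0.093 (without WT 1118) and *Wnt6* from 0.053 (without WT 1121) to 0.26 (without WT 1120). Over the alternatives the adjusted p of *Wnt4* was at least 0.484 and that of *Wnt2* at least 0.632. Among all genes, 278 were called, 691 without the filter on low counts, and 231 (without WT 1118) to 437 (without WT 1120) when a library was left out. The number of pathway genes called was 3 in every setting, and without GOAT KO 1146 *Sfrp2* took the place of *Frzb*. Signs near 0 changed without WT 1120 and GOAT KO 1139 for *Wnt5a* (-0.020) and *Axin2* (-0.031). When 1 library was left out they changed for *Wnt5a* (range -0.017 to 0.12), *Rspo1* (-0.16 to 0.029), *Axin2* (-0.046 to 0.13), *Sfrp4* (-0.64 to 0.46) and *Fzd1* (-0.051 to 0.14), and the cause was not tested. Junction reads of *Wnt4* and *Lgr5* did not overlap between groups with either other scaling. Over junctions listed in every library 1 gene remained so, *Wnt4*, since *Lgr5* has no such junction. Leaving out libraries cannot end such a separation. No paired analysis was possible because the groups share no animal numbers. Depth limits *Wnt2*, *Lef1* and *Sfrp4*, and 8 libraries leave the 95% intervals of the 10 genes at least 0.43 wide on the log2 scale.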
